A study of Mus musculus with 3 samples.

Results

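Leukemia inhibitory factor (LIF) keeps mouse embryonic stem cells in the self-renewing state, and 8 genes of that route were followed here across the 3 libraries of a Lef1 introduction experiment. They are Lifr and Il6st, which encode the receptor chains, Stat3, the transcription factor they activate, and Socs3, Pim1, Pim3, Pramel6 and Pramel7, which are target genes of STAT3. The members were taken by their Entrez gene numbers, and all 8 were found among the 17997 genes listed in at least 1 library. The cells are 46C mouse embryonic stem cells of strain 129, a line with a fluorescent protein gene placed at Sox1, grown on gelatin with serum and LIF in every group. The first culture received the empty PB vector and was collected at passage 2; its library is called the control. Cultures given Lef1 (PB-Lef1) were collected at passage 2 (early Lef1) and at passage 5 (late Lef1). The sources used here do not say whether a culture was a pool or a clone, and no empty-vector culture of passage 5 was analysed here, so in the comparison of late Lef1 with the control the gene and the passage cannot be told apart.

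LIF binds the receptor chain encoded by Lifr, which then joins with gp130, the shared signalling chain encoded by Il6st. Janus kinases (JAKs) bound to these chains phosphorylate STAT3, which enters the nucleus and turns on its targets. SOCS3 is a feedback inhibitor that binds gp130 and the kinases. PIM1 and PIM3 are serine/threonine kinases that favour growth and survival. PRAMEL6 and PRAMEL7 belong to the PRAME family of leucine-rich repeat proteins, and their genes respond to LIF in embryonic stem cells.

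Each group has 1 library, so no test between conditions was possible and no p-value is given. The expected counts (estimated reads per gene) summed to between 9170554 and 9380813 per library. Levels are in FPKM, the fragments of a gene divided by its transcript length and by library size, and parentheses after a level or a fold hold exact 95% intervals, which cover counting error only and leave out the difference between cultures. Calls of higher or lower required that log2 of the ratio of (FPKM + 1) be at least 1 in size, with at least 3 FPKM and 20 expected reads in the higher library. Lef1 was at 1.49, 135 and 214 FPKM in the control, early Lef1 and late Lef1, in the order of the labels. The embryonic stem cell genes Pou5f1 (704 to 1135 FPKM), Sox2 (192 to 254 FPKM) and Nanog (160 to 176 FPKM) were high in every library.

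The sequences before 3 of the genes are shown. Socs3 was taken as the classical STAT3 target, whatever its level did. Pramel6 and Pramel7 are neighbours on the same chromosome whose levels took different courses below, although Pramel6 had 1 expected read in early Lef1. Each window holds the 250 bases before the annotated transcript start, from RefSeq on GRCm38.p6, which is not the mm8 build of the deposited files. Capitals mark a match to a searched motif. The motifs were TTCNNNGAA, the palindrome that STAT proteins bind, its stricter form TTCCNGGAA, which is a subset of the first, and CTTTGAT and CTTTGAA, core sequences bound by TCF/LEF factors, all read on both strands.
Socs3 (chr11:117969367-117969616, minus strand): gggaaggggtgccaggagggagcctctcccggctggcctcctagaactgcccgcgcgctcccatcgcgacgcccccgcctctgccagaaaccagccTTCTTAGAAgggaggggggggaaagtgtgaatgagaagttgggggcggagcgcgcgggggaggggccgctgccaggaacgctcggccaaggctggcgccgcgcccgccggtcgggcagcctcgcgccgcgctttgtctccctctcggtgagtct
Pramel7 (chr2:87492419-87492668, minus strand): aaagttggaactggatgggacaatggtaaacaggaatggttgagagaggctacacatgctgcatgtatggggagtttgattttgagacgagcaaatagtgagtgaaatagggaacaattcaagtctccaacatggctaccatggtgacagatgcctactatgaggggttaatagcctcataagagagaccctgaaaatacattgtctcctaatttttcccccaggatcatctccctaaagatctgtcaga
Pramel6 (chr2:87506315-87506564, plus strand): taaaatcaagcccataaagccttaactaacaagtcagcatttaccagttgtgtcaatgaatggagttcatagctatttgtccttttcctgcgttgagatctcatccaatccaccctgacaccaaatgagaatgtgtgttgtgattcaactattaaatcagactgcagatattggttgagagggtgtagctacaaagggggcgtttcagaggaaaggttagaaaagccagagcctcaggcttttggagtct
RefSeq windows were found for all 8 genes, 10 windows in all, since Lifr and Pim1 have 2 annotated starts. The only match was TTCTTAGAA before Socs3, 154 bases from the start, of the form TTCNNNGAA. Among all 32851 promoter windows of this length, 7.02% hold TTCNNNGAA, 0.913% TTCCNGGAA, 3.21% CTTTGAT and 4.46% CTTTGAA. The window before Socs3 has a GC content of 71.6%, against 43.2% before Pramel7 and 42.0% before Pramel6. A match describes letters in a window and does not show that a factor binds there.

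Of the 8 genes, Pramel7 was the only member called, in both comparisons with the control. It was at 0.66 FPKM (0.329 to 1.18) in the control, 8.12 FPKM (6.80 to 9.62) in early Lef1 and 3.83 FPKM (2.96 to 4.88) in late Lef1. Lifr, Stat3 and Pim1 lay close together in the 3 libraries, and Il6st, Socs3 and Pim3 had their highest level in the control. At passage 2, 1 of the 7 members that could be called was called higher and 0 lower, beside 6.49% of 10651 genes called higher and 1.82% called lower. For late Lef1 against the control the counts were again 1 and 0 of 7, beside 1.4% of 10121 genes called higher and 1.28% lower. Between late Lef1 and early Lef1 no member was called, where 8.74% of 10593 genes were called in either direction. The member that could not be called in any comparison is Pramel6, which never reached 3 FPKM or 20 reads. These comparisons share libraries, so their values are not independent of each other.

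**Figure D1:**
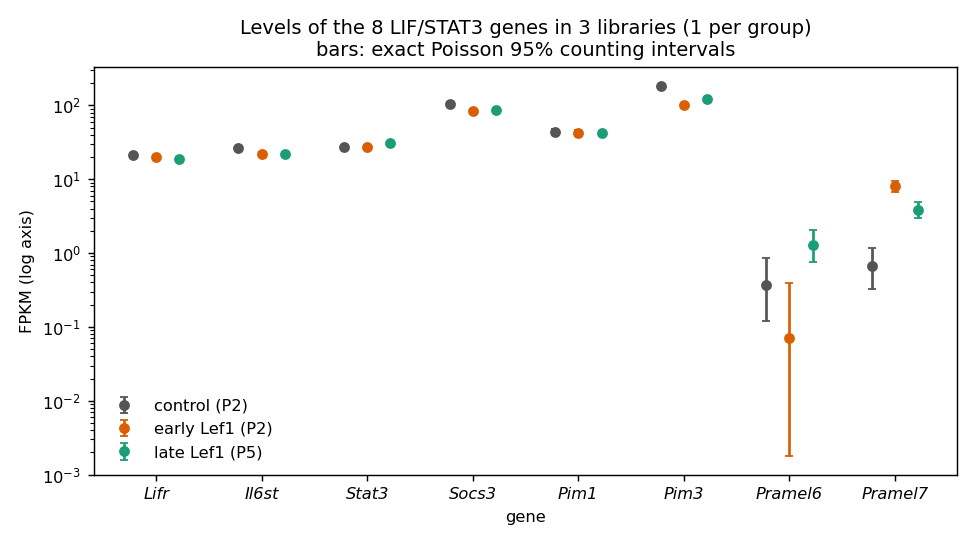
Levels of the 8 genes in FPKM on a log axis, 1 point per library, with exact 95% Poisson counting intervals. The points of Lifr, Il6st, Stat3 and Pim1 lie close together on this axis, those of Pim3 run from 103 to 182 FPKM, and Pramel7 stands at 0.66, 8.12 and 3.83 FPKM.

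Within each library the order of levels was Pim3, Socs3, Pim1, Stat3, Il6st, Lifr, Pramel7 and Pramel6. FPKM is per length, so these genes can be ranked against each other. Some neighbours in that order had overlapping counting intervals: Stat3 and Il6st in the control, Pramel7 and Pramel6 in the control, and Il6st and Lifr in early Lef1. All other neighbours were apart by more than counting error in the library concerned. In the control the level stepped down from 21.1 FPKM for Lifr to 0.66 FPKM for Pramel7. In early Lef1 the wider step, as a ratio, lay between Pramel7, at 8.12 FPKM, and Pramel6, at 0.07 FPKM. That Pramel6 level rests on 1 expected read.

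Among the receptor genes, Lifr, the chain that recognises LIF, was at 21.1 FPKM (19.99 to 22.2) in the control, 20.3 FPKM (19.3 to 21.3) in early Lef1 and 18.99 FPKM (18.04 to 19.98) in late Lef1. The 3 values span a narrow range, and the interval of late Lef1 lies just under that of the control. Its expected reads ran the other way, at 1448, 1569 and 1501, because the deposited transcript length of Lifr differed between libraries. It was 7495 bases in the control, 8471 in early Lef1 and 8461 in late Lef1, and FPKM falls as length rises. The log2 ratio to the control was -0.05 for early Lef1 and -0.14 for late Lef1, and with reads alone scaled to the library (CPM) it was 0.12 and 0.03, so no direction can be given for Lifr. The tables list 2 RefSeq transcripts for Lifr, and its count in late Lef1 was not a whole number; the counts of the other 7 genes were whole in every library.

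Il6st, the gp130 chain shared by the whole cytokine family, was at 26.5 FPKM (25.1 to 27.999) in the control, 21.9 FPKM (20.6 to 23.3) in early Lef1 and 22.1 FPKM (20.8 to 23.4) in late Lef1. The Lef1 libraries overlap each other and both lie under the control. The fold to the control was 0.827 (0.762 to 0.896) at passage 2 and 0.833 (0.769 to 0.903) at passage 5, well inside the 2-fold threshold. Il6st over Lifr within a library was 1.26, 1.08 and 1.16 in the control, early Lef1 and late Lef1. Because the deposited length of Lifr was shorter in the control, these ratios are not on the same scale across libraries.

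Stat3 itself was at 26.9 FPKM (25.4 to 28.6) in the control, 27.7 FPKM (26.2 to 29.4) in early Lef1 and 30.7 FPKM (29.03 to 32.4) in late Lef1. The control and early Lef1 cannot be separated by counting error, and late Lef1 lies above the control, 1.14-fold (1.05 to 1.24). The log2 ratio at passage 2 was 0.04 as deposited and -0.11 after the libraries were rescaled by median-of-ratios, so its sign is not fixed.

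Socs3, the feedback inhibitor, was the second most abundant of the 8 transcripts, at 105 FPKM (101 to 109) in the control, 84.5 FPKM (80.9 to 88.2) in early Lef1 and 86.8 FPKM (83.2 to 90.5) in late Lef1. Both Lef1 libraries lie under the control and overlap each other. The fold to the control was 0.802 (0.757 to 0.850) at passage 2 and 0.823 (0.777 to 0.872) at passage 5. This gene carries the TTCTTAGAA match shown above. Per Stat3 transcript, the Socs3 level was 3.91, 3.04 and 2.83 in the control, early Lef1 and late Lef1, each a ratio of FPKM values within 1 library.

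The kinase genes Pim1 and Pim3 differed from each other. Pim1 was at 44.1 FPKM (40.9 to 47.5) in the control, 42.9 FPKM (39.7 to 46.3) in early Lef1 and 41.9 FPKM (38.8 to 45.2) in late Lef1, and the 3 intervals overlap. Pim3 was at 182 FPKM (177 to 188) in the control, 103 FPKM (98.7 to 107) in early Lef1 and 124 FPKM (119 to 128) in late Lef1, and no interval overlaps another. The fold of Pim3 to the control was 0.564 (0.535 to 0.594) at passage 2 and 0.677 (0.645 to 0.711) at passage 5. Its log2 ratio at passage 2, -0.82, missed the threshold of 1 but lay below the 5th percentile of all tested genes (-0.72), whereas at passage 5 the ratio of -0.56 lay inside the middle 90% of genes (-0.62 to 0.54). Among embryonic stem cell markers, Pou5f1 was also lowest in early Lef1, at 1135, 704 and 1062 FPKM in the control, early Lef1 and late Lef1. Nanog, alone of these markers, was lowest in the control, at 160, 167 and 176 FPKM in the same order. The 5 such markers summed to 2053, 1476 and 1975 FPKM, none was called, and their median log2 ratio to the control was -0.37 at passage 2 and 0.03 at passage 5. Their part in the lower Pim3, Socs3 and Il6st was not tested. Pim3 exceeded Pim1 by 4.13 times in the control, 2.40 times in early Lef1 and 2.95 times in late Lef1. In 35-base stretches compared with the GENCODE M21 transcripts, Pim3 shared none with another gene and Pim1 shared 12.8% with the annotated transcript Gm26885. The Pim1 transcript compared had 2698 bases, against a deposited length of 1769. Whether the shared part lies within the counted length was not examined. Read length is not stated in the sources used here.

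**Figure D2:**
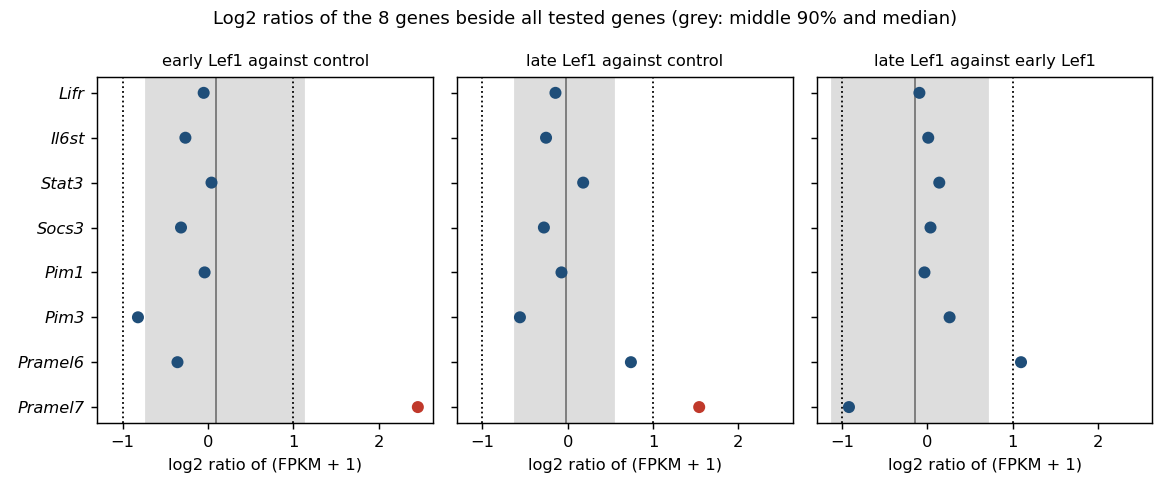
Log2 ratios of (FPKM + 1) for the 8 genes in the 3 comparisons, 1 point per gene, red where called. The grey band spans the 5th to 95th percentile of all tested genes with their median as a line, and dotted lines mark ratios of -1 and 1; Pramel7 is at 2.46 and 1.54 against the control, and Pim3 at -0.82 and -0.56.

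Pramel7 rested on 11 expected reads in the control, 134 in early Lef1 and 65 in late Lef1. The fold to the control was 12.3 (6.66 to 25.2) at passage 2 and 5.80 (3.04 to 12.2) at passage 5. Late Lef1 was at 0.472 (0.345 to 0.639) of early Lef1, a log2 ratio of -0.92 on the (FPKM + 1) scale, just short of a call. The 3 libraries do not overlap. Its log2 ratio of 2.46 at passage 2 lies far outside the middle 90% of genes (-0.72 to 1.13), as does 1.54 at passage 5. The call at passage 5 was lost with a pseudocount of 5 FPKM (log2 ratio 0.64).

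Pramel6, its neighbour, was close to the limit of detection. It was at 0.37 FPKM (0.1201 to 0.863) in the control, 0.07 FPKM (0.0018 to 0.390) in early Lef1 and 1.29 FPKM (0.765 to 2.04) in late Lef1, from 5, 1 and 18 expected reads. Late Lef1 was the highest of the 3 and early Lef1 the lowest, the reverse of Pramel7 between the passages. The fold to the control was 0.189 (0.0040 to 1.69) at passage 2, which includes no difference, and 3.49 (1.25 to 12.01) at passage 5. Late Lef1 stood 18.4-fold (2.91 to 768) above early Lef1, an interval set by the single read in early Lef1. Pramel7 over Pramel6 was therefore 1.78 in the control, 116 in early Lef1 and 2.97 in late Lef1, where the value for early Lef1 rests on that read. No 35-base stretch of the Pramel7 transcript occurs in Pramel6; 4.54% occur in the processed pseudogene Gm5949, and 0.0664% of those of Pramel6 occur in another gene.

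Among 9 other Pramel genes, 7 were listed in some library, 4 reached 1 FPKM, 3 could be called at passage 2 and 2 in late Lef1 against the control, and 0 were called there. Of all genes, 6.49% were called higher and 1.82% lower at passage 2, and 1.4% and 1.28% in late Lef1 against the control. Pramel13 was at 28.8, 19.9 and 27.5 FPKM and Pramel12 at 11.8, 10.3 and 10.2 FPKM in the control, early Lef1 and late Lef1, both above Pramel6 and Pramel7 in every library, although the intervals of Pramel12 and Pramel7 overlap in early Lef1. Pramel1 was at 2.54, 4.17 and 1.34 FPKM and was called lower in late Lef1 than in early Lef1 (log2 ratio -1.14). The call was lost after median-of-ratios rescaling (-0.996) and narrowly kept after TMM rescaling (-1.01).

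The 3 genes with the profile nearest to Pramel7, by distance between centred log2(FPKM + 1) values over the 3 libraries among 10731 genes, were Prxl2a (distance 0.03), Lrpap1 (0.07) and Mogat2 (0.08). Prxl2a, a redox protein gene, was at 9.52, 55.9 and 30.2 FPKM in the control, early Lef1 and late Lef1. Lrpap1, which encodes the chaperone of LDL-receptor family proteins, was at 23.4, 139 and 68.7 FPKM. Mogat2, an acyltransferase gene, was at 0.63, 7.58 and 3.93 FPKM. Only 3 points define such a profile, so a close match is a description.

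Markers of extraembryonic endoderm were, like Pramel7, highest in early Lef1. Against the control, all 11 were called higher in early Lef1, and 7 of the 9 that met the minimum in late Lef1. The shares of all genes called higher there were 6.49% and 1.4%. The 11 summed to 56.7 FPKM in the control, 825 FPKM in early Lef1 and 228 FPKM in late Lef1. Amn and Dab2 were not called in late Lef1 against the control. Foxa2, at 0.27, 6.13 and 1.74 FPKM, and Cubn, at 2.68, 32.96 and 2.53 FPKM, could not be called there. Cubn had overlapping counting intervals in late Lef1 and the control, whereas those of Pramel7 did not overlap. None of the 11 was at 0 in any library, and Gata6 was at 2.24, 46.3 and 20.3 FPKM. Of 7 trophoblast markers, only 2 could be called in each comparison with the control, and 1, Krt8, was called higher in both. The other, Tfap2c, was at 12.4, 12.3 and 9.96 FPKM in the control, early Lef1 and late Lef1 and was not called. The trophoblast markers summed to 23.3, 77.8 and 31.0 FPKM, of which Krt8 made up 8.55, 61.3 and 19.2 FPKM. Elf5 was listed in no library. Fibroblast markers summed to 17.7, 10.6 and 7.78 FPKM, nearly all of it Thy1, which was called lower in late Lef1 than in the control (log2 ratio -1.02), with Postn and Lum listed in no library. The part of other cell types in the Pramel7 difference was not tested, and in bulk RNA more cells of a type and more RNA per cell cannot be told apart.

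**Figure D3:**
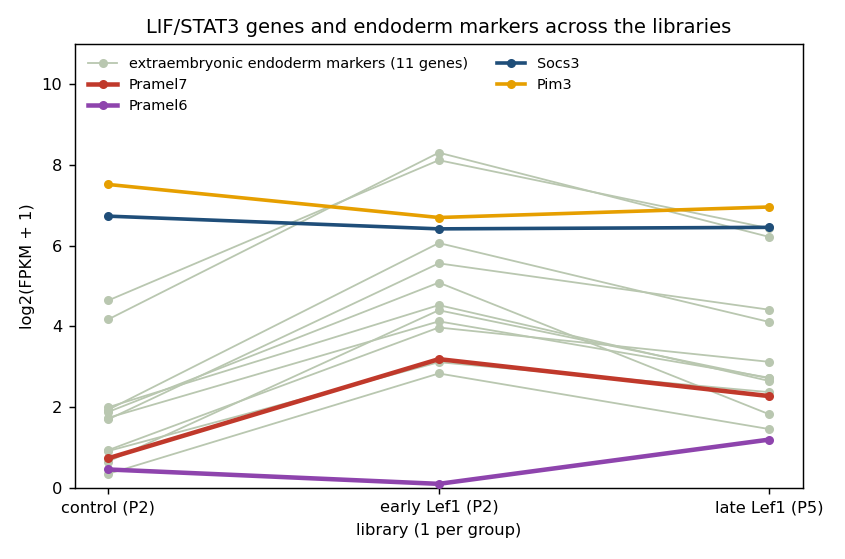
Levels as log2(FPKM + 1) of Pramel7, Pramel6, Socs3 and Pim3 with 11 extraembryonic endoderm markers in grey, 1 point per library. Pramel7 and the endoderm markers peak in early Lef1, while Socs3 and Pim3 are highest in the control and Pramel6 in late Lef1.

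By non-overlapping counting intervals alone, with no fold threshold, 4 of the 7 members differed at passage 2 (Pramel7 higher, and Il6st, Socs3 and Pim3 lower), beside 57.1% of all tested genes. For late Lef1 against the control, 6 of 7 differed (Stat3 and Pramel7 higher, and Lifr, Il6st, Socs3 and Pim3 lower), beside 36.8% of genes. The lower value of Lifr there comes with the longer deposited length, and its reads were not lower. Between the Lef1 libraries, Pim3 was higher and Pramel7 lower in late Lef1, 2 of 7 beside 60.1%. At passage 2 the members' share is near that of all genes. At a 1.5-fold threshold, 2 members were called at passage 2 (Pim3 lower and Pramel7 higher), 1 in late Lef1 against the control (Pramel7 higher) and 1 between the Lef1 libraries (Pramel7 lower in late Lef1), beside 25.5%, 10.3% and 28.0% of genes. The median log2 ratio over the 8 members was -0.16, -0.11 and 0.02 in early Lef1 against the control, late Lef1 against the control and late Lef1 against early Lef1, beside 0.11, -0.02 and -0.17 over all 12894 genes that reached 1 FPKM.

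The rest of the signalling route was read from 7 lists with 64 other genes, of which 59 reached 1 FPKM. At passage 2, 6 were called higher in early Lef1 (Bcl6, Fos, Jak2, Socs1, Stat5a and Tbx3) and 2 lower (Gbx2 and Myc), of 49 that met the minimum level and reads, beside the 6.49% and 1.82% of all genes. After either rescaling, 4 were higher and 3 lower there, without Jak2 and Socs1 and with Socs2 lower. In late Lef1 against the control, 1 was higher (Osm) and 0 lower of 44, beside 1.4% and 1.28%. In late Lef1 against early Lef1, Myc was higher and 4 were lower (Bcl6, Fos, Socs1 and Stat5a) of 49, beside 8.74% of all genes in either direction. After either rescaling, 2 were higher there (Myc and Osm) and 2 lower (Socs1 and Stat5a). The median log2 ratios of the 59 were 0.18, -0.06 and -0.23 in these comparisons, beside the medians of 0.11, -0.02 and -0.17 over all genes.

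Ligand transcripts of the gp130 family were scarce. Lif was at 1.36 FPKM (51 reads) in the control, 3.53 FPKM (131 reads) in early Lef1 and 1.77 FPKM (67 reads) in late Lef1, and its log2 ratio of 0.94 at passage 2 was short of a call. The medium of all cultures contained LIF. Osm, which encodes the related cytokine oncostatin M, was at 0.06 FPKM in the control, 1.12 FPKM in early Lef1 and 3.05 FPKM in late Lef1. With 1, 19 and 53 reads, Osm was 50.8-fold (8.74 to 2045) above the control at passage 5, and its call depended on lying just above 3 FPKM. Its receptor gene Osmr was between 0.05 and 0.43 FPKM. Il6 and Il27 were listed in no library, and of the 6 other gp130 family receptor genes only 1 met the minimum level and reads in each comparison, and it was not called.

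Among the Janus kinase genes, Jak1, which is bound to gp130, was at 14.9 FPKM in the control, 15.8 FPKM in early Lef1 and 11.5 FPKM in late Lef1. Jak2 was at 1.28, 3.62 and 1.82 FPKM, called higher at passage 2 (log2 ratio 1.02) but not after median-of-ratios (0.90) or TMM rescaling (0.91). Jak1 was the more abundant of the pair in every library. Of the other STAT genes, Stat5a was at 1.33, 4.47 and 1.14 FPKM, called higher in early Lef1 than in both other libraries. Stat5a and its close copy Stat5b had counts that were not whole, so the division of reads between them is uncertain.

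The inhibitor lists, 14 genes besides Socs3, held 1 call among the 13 that met the minimum at passage 2. It was a call of higher, beside 6.49% of all genes. The gene was Socs1, a direct JAK inhibitor, at 4.31 FPKM in the control, 10.2 FPKM in early Lef1 and 3.54 FPKM in late Lef1. Its log2 ratio at passage 2 was 1.07 as deposited and 0.93 after either rescaling, under the threshold. Socs2, at 30.2, 15.8 and 17.9 FPKM, had a log2 ratio of -0.89 at passage 2 and was called lower there after either rescaling. The 6 adaptor genes of the SHP2 and ERK branch, which gp130 also feeds, had 0 calls in the 3 comparisons, with 5 that met the minimum in each. Of all genes, 6.49% were called higher and 1.82% lower at passage 2, and 1.4% and 1.28% in late Lef1 against the control. Between the Lef1 libraries 8.74% were called.

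Of 20 other STAT3 target genes, 19 met the minimum at passage 2, and 3 were called higher and 2 lower. Of all genes, 6.49% and 1.82% were called there. In late Lef1 against the control 0 of 17 were called, beside 1.4% of all genes higher and 1.28% lower. The naive pluripotency factor genes Klf4 (66.2, 65.7 and 48.2 FPKM in the control, early Lef1 and late Lef1) and Tfcp2l1 (56.6, 84.5 and 66.9 FPKM) were not called. Tbx3, a T-box factor gene of naive cells and endoderm, was called higher at passage 2, at 29.6, 77.6 and 48.9 FPKM. Gbx2, a homeobox gene that can sustain self-renewal, was called lower there, at 13.2, 6.02 and 7.35 FPKM. Myc, a growth regulator, was at 15.4, 4.10 and 14.3 FPKM, low in early Lef1 alone. Junb, an AP-1 subunit gene, was at 16.6, 16.7 and 15.6 FPKM, while Fos, its partner, was at 1.59, 5.43 and 2.02 FPKM and the repressor gene Bcl6 at 1.26, 3.94 and 1.37 FPKM, both called higher in early Lef1 than in the other 2 libraries. After median-of-ratios rescaling the log2 ratios in late Lef1 against early Lef1 were -0.93 for Fos and -0.91 for Bcl6, and these calls were lost, as they were with TMM (-0.95 and -0.93). These courses do not share a direction with each other.

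**Figure D4:**
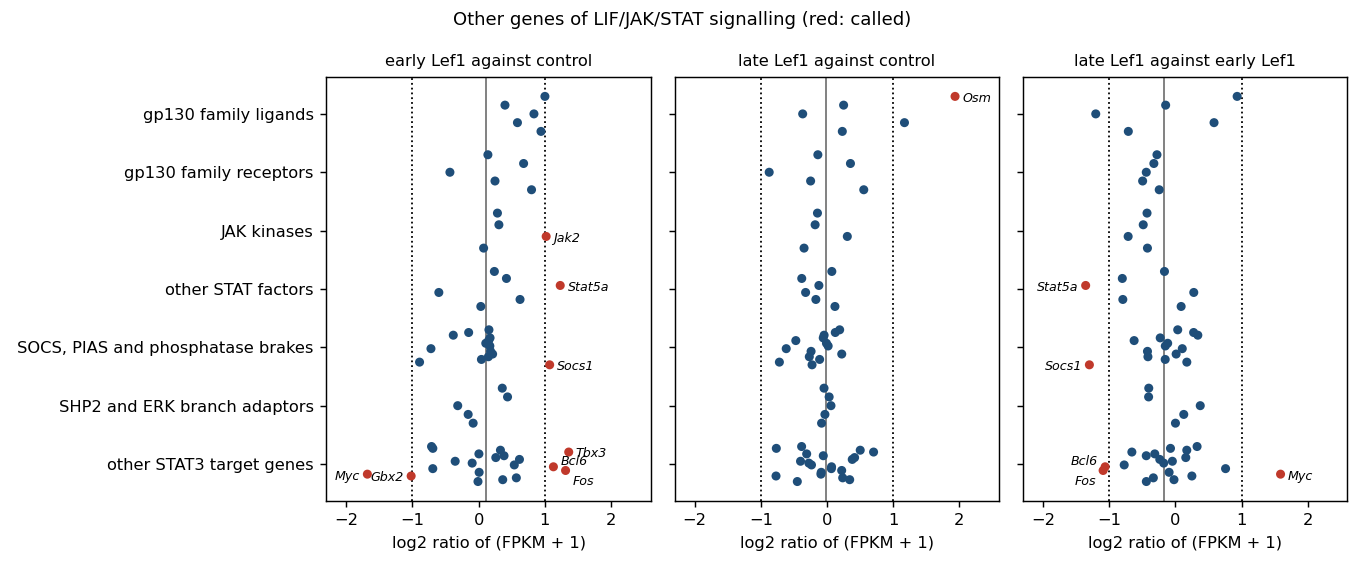
Log2 ratios of (FPKM + 1) for the 59 measured genes of 7 signalling lists in the 3 comparisons, 1 point per gene, red and named where called, with the median of all measured genes as a grey line and dotted lines at -1 and 1. Most points lie between the dotted lines; 8 genes are called at passage 2, 1 in late Lef1 against the control and 5 between the Lef1 libraries.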

How the data were processed

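Total RNA of 3 cultures was sequenced, 1 library per group. Bowtie 0.12.2 and genome build mm8 are named per the submitters' processing notes; the counting program, read length and strand setting are not stated in the sources used here. Per the file headers, the authors deposited an expected count and an FPKM value per Entrez gene, with a transcript length. Genes not listed were taken as 0. Symbols came from the GRCm38.p6 RefSeq table (17951 of 17997 numbers matched). FPKM values were compared as deposited, on the log2 scale with a pseudocount of 1 FPKM, which understates folds of low genes; folds in the text are plain FPKM ratios. Intervals are exact Poisson for levels and exact binomial (Clopper-Pearson) for folds, at 95%, computed with scipy 1.17.1 in Python 3.11.15, and cover counting error only. PCR copies of a molecule were not separated by molecular identifiers, so reads are not all independent. Named genes were the 8 members, called genes of the lists, 10 genes of the route whatever their values (1 is not reported here), Lef1, 3 stem cell genes and the 3 nearest profiles to a called member; Pramel12, Pramel13, Socs2, Osmr, Cubn, Gata6, Krt8 and Thy1 were added after their values were seen, as were genes named in small counts. Members and lists were chosen with earlier results of these data known. TMM divisors came from edgeR 4.0.16 on rounded expected counts.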

Additional observations from a re-analysis of the deposited data

Results flagged for a closer look

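The 8 members and 64 other pathway genes were searched for ratios to the control of opposite sign at the 2 passages. A gene was kept only if both counting intervals excluded no difference, so that property is the rule and not a result. Stat2, Stat5b and Socs7 were kept. How many of all genes would be kept was not counted. With 1 library per group the contrast between passages was not tested, and both ratios share the control. The log2 ratio of Stat2 was 0.62 in early Lef1 against the control and -0.17 in late Lef1 against the control. The second value shrank to -0.13 after median-of-ratios rescaling. The fold of Stat2 at passage 5 was 0.882 (0.778 to 0.999), an interval that ends just under no difference. The log2 ratio of Stat5b was 0.42 and -0.38, with counts that were not whole. That of Socs7 was 0.18 and -0.24, and the first value shrank to 0.04 after median-of-ratios and TMM rescaling.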

How the results depend on the processing

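Of the 24 log2 ratios of the members, 19 kept their sign under the 6 alternatives tried for each and 5 did not: Lifr in all 3 comparisons, Stat3 at passage 2 and Pim1 between the Lef1 libraries. Median-of-ratios, TMM, a pseudocount of 0.1 FPKM, CPM and 1 length per gene all kept Pramel7 called against the control in both comparisons. Against the control, a minimum of 10 FPKM left 0 members called at each passage, a pseudocount of 5 FPKM left 0 at passage 5, a 1.5-fold threshold gave 2 at passage 2 (Pim3 and Pramel7), and counting intervals alone gave 4 and 6. Over all genes, 885 and 272 were called against the control in the main setting, and 478 and 116 with a minimum of 10 FPKM. A pseudocount of 5 FPKM left 67 of all genes at passage 5. The 1.5-fold threshold called 25.5% of tested genes at passage 2, and counting intervals 57.1% and 36.8%. Between the Lef1 libraries, where 0 were called, a pseudocount of 0.1 FPKM and a 1.5-fold threshold gave 1 (Pramel7), no minimum level gave 1 (Pramel6) and counting intervals gave 2. Of all genes, 926 were called there in the main setting, 1257 with a pseudocount of 0.1 FPKM and 1121 with no minimum level. The 1.5-fold threshold called 28.0% of tested genes there and counting intervals 60.1%.

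For the other pathway genes, with 8, 1 and 5 called in early Lef1 against the control, late Lef1 against the control and late Lef1 against early Lef1, a pseudocount of 5 FPKM gave 2, 0 and 1, a minimum of 10 FPKM gave 4, 0 and 2, a 1.5-fold threshold gave 17, 6 and 14, and counting intervals gave 29, 16 and 28. The last 2 settings apply to 49, 44 and 49 pathway genes. Of all tested genes, they called 25.5%, 10.3% and 28.0% at 1.5-fold, and 57.1%, 36.8% and 60.1% by counting intervals. By counting intervals the pathway share is near that of all genes. Calls over all genes numbered 885, 272 and 926 in the main setting. They fell to 328, 67 and 281 with a pseudocount of 5 FPKM, and to 478, 116 and 503 with a minimum of 10 FPKM. In late Lef1 against the control, no minimum level gave 2 pathway genes, CPM 2 and 1 length per gene 0. The calls over all genes there were 380, 545 and 260. Between the Lef1 libraries CPM gave 8 pathway genes, beside 1547 of all genes. Fewer genes can be called under a higher minimum level; the cause of the other differences was not tested.

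Median-of-ratios and TMM moved the median of all measured genes by -0.14 and -0.14 at passage 2, and by 0.18 and 0.16 between the Lef1 libraries. The share of all calls that were higher was 78.1% as deposited at passage 2, against 62.3% and 62.5%, and 21.5% between the Lef1 libraries, against 45.8% and 43.4%. No paired analysis was possible because each group has 1 library, and for the same reason no library could be left out. Depth limits Pramel6, with at most 18 reads, and Osm, with 1 read in the control.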
